A study of Mus musculus with 6 samples.

Results

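The clustered replication-dependent histone genes were followed in cultured mouse lung fibroblasts. They were taken as the genes whose older symbol starts with Hist1h, Hist2h, Hist3h or Hist4h and that had a probe set annotated to them alone. The array annotation uses the current names of these genes (H2bc12 for Hist1h2bk, for example), so the older symbols were found through gene numbers in the RefSeq gene table. 30 of the 22180 genes tested met the rule. 5 were linker histone H1 genes, 8 H2A genes, 9 H2B genes and 8 H4 genes. 22 lay in cluster 1 on chromosome 13, 5 in cluster 2 on chromosome 3, 2 in cluster 3 on chromosome 11 and 1, H4f16, was the Hist4h4 gene on chromosome 6. RefSeq lists 2 of the 30, H2af-ps2 and H2bu1-ps, as transcribed pseudogenes. No H3 gene had a probe set of its own. A further 39 clustered histone genes, among them every H3 gene on the array, were read by probe sets that list several histone genes, and these are described separately below as shared probe sets.

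The fibroblasts came from lungs of adult UBCCreERT2:R26RSmoM2 mice of mixed strain, in which the ubiquitin C promoter drives a tamoxifen-activated Cre that switches on SmoM2, a constitutively active form of the hedgehog signal transducer Smoothened. 3 wells received 1 µg/ml 4-hydroxytamoxifen (4OHT) for 48 h and 3 wells received vehicle, with 1 array per well. Both groups carried the Cre and the SmoM2 allele, so the drug, recombination and the activated allele cannot be told apart. The labels describe wells split from freshly isolated cells, give all 6 arrays 1 genotype number and name no separate animals, so the p-values measure only the spread between these wells, which may be technical.

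Histones package DNA. Core histones H2A, H2B, H3 and H4 form the nucleosome, and linker histone H1 binds where DNA enters and leaves it. The clustered genes supply new histones when DNA is copied, and their transcripts rise as cells enter S phase and are degraded when DNA synthesis stops. Most of these mRNAs end in a stem-loop bound by the protein Slbp in place of a poly(A) tail, while some of the genes also give polyadenylated transcripts in resting or differentiated cells. The RNA here was primed with an oligo(T) primer, so transcripts with a stem-loop end are not its usual template. Which 3′ ends the labelled RNA carried was not measured. The coding sequences of the genes are also very alike, and how far a probe set annotated to 1 gene also binds transcripts of its relatives was not tested.

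The 6 arrays were alike, with Pearson's r over the 22180 genes (across genes, which are not independent replicates) between 0.997 and 0.998 within a group and between 0.995 and 0.996 between groups. All 10 fibroblast markers on a list that included Col1a1, Pdgfra and Dcn lay above the median level of all genes, and their mean log2 expression was 12.60 to 12.62 in 4OHT wells and 12.68 to 12.70 in vehicle wells. Of 8 endothelial markers 2 lay above that median. Their mean was 6.59 to 6.65 in 4OHT wells and 6.74 to 6.86 in vehicle wells, with Cdh5, Emcn and Pecam1 lower and Tek and Kdr higher in 4OHT wells. The part of this difference in the histone values was not tested. Macrophage markers averaged 7.04 to 7.14 in 4OHT wells and 7.07 to 7.12 in vehicle wells (8 genes, with Cd68 higher and Lyz2 lower), and epithelial markers 6.79 to 6.86 in 4OHT wells and 6.83 to 6.87 in vehicle wells (9 genes, with Krt8 lower). Col3a1 was the fibroblast marker that was lower, and these called markers were named after their values were seen. RMA log2 values have no zero, so the absence of a marker cannot be read from them.

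The comparison asked which clustered histone genes differed between 4OHT and vehicle wells. 7 of the 30 genes fell and none rose at an adjusted p under 0.05 (limma, Benjamini-Hochberg over all 22180 genes). They were H2bc12, H1f5, H2ac15, H2ac21, H2bc3, H2ac10 and H1f1. This is 23.3% of the histone genes, where 6.62% of all genes tested were lower and 5.38% were higher. The falls ran from 0.26 to 1.32 on the log2 scale, and the median over the 30 genes was -0.13 against -0.01 over all genes. Among the 9 of the 30 genes above the median level of all genes, the median was -0.66. Arrays of bulk RNA cannot tell fewer cells in S phase from less histone mRNA per cell. In 10 of the 30 genes all 4OHT wells lay below all vehicle wells, as they did in 17.8% of all genes. In 2, H1f2 and H4c9, all 4OHT wells lay above, as they did in 15.0% of all genes. The plot of the genes on each array shows all 30.

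**Figure D1:**
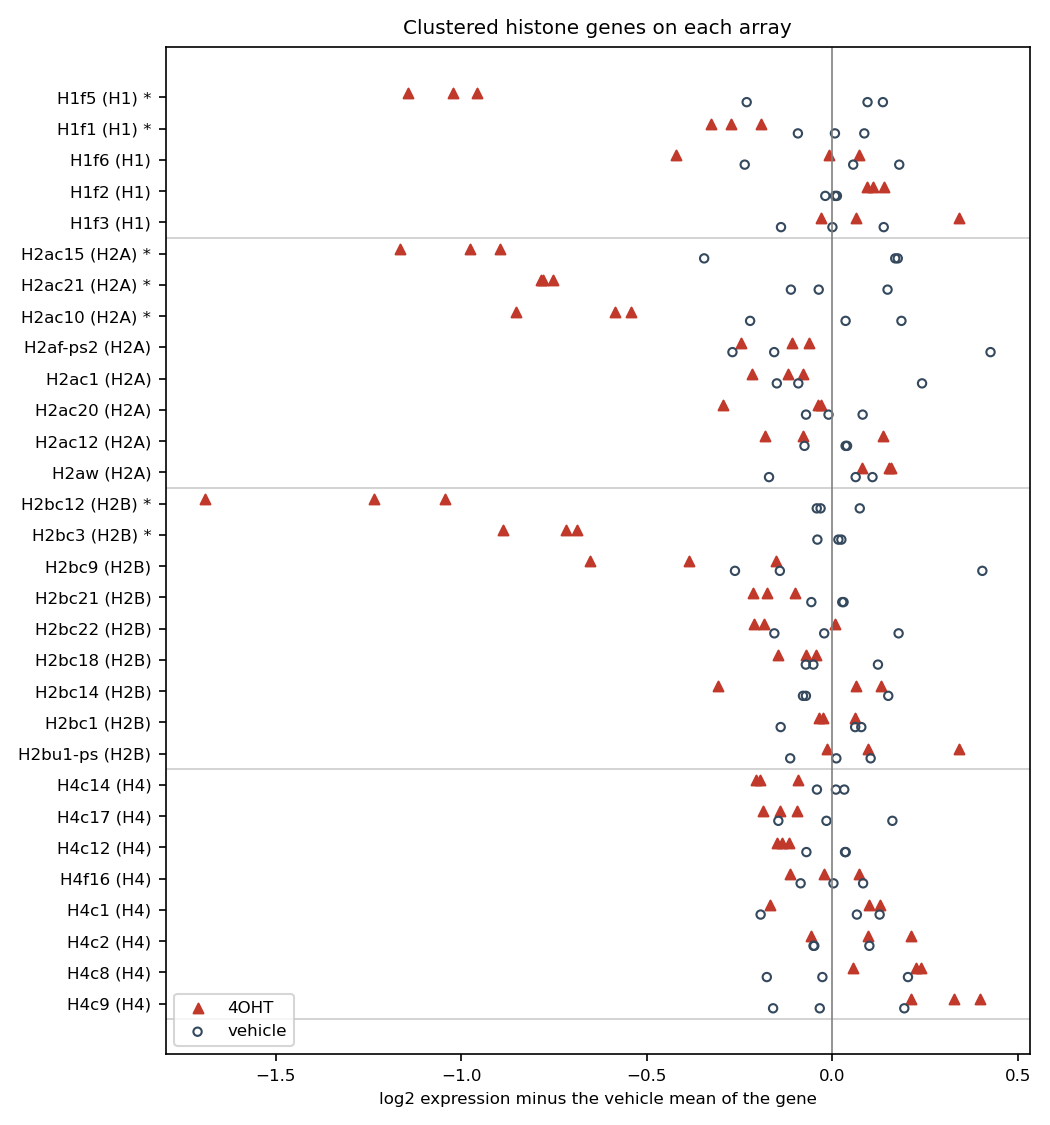
Log2 expression of each of the 30 clustered histone genes on each array, minus the gene's vehicle mean, with 4OHT wells as red triangles and vehicle wells as open circles, grouped by histone type; an asterisk marks an adjusted p under 0.05. H2bc12, H1f5 and H2ac15 lie farthest to the left, and the log2 fold changes of the 8 H4 genes run from -0.16 to 0.31.

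The H2B gene H2bc12 (Hist1h2bk) differed most. Its log2 expression was 7.03, 7.49 and 7.68 in 4OHT wells and 8.80, 8.69 and 8.68 in vehicle wells. The groups were far apart, and the 4OHT wells spread more widely than the vehicle wells (SD 0.33 and 0.06, n = 3 each). H2bc12 was 2.5-fold lower in 4OHT wells, a log2 fold change of -1.32 with an SE of 0.16 (limma, adjusted p = 0.00324). It is also among the genes of shared probe sets with smaller differences, described below. A second H2B gene, H2bc3 (Hist1h2bb), read 8.69, 8.49 and 8.66 in 4OHT wells and 9.40, 9.41 and 9.34 in vehicle wells. Both groups were tight and did not overlap, and H2bc3 was 1.70-fold lower, a log2 fold change of -0.76 with an SE of 0.063 (limma, adjusted p = 0.000906).

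3 genes of H2A, the partner of H2B in the nucleosome, fell. H2ac15 (Hist1h2ak) read 5.90, 6.17 and 6.09 in 4OHT wells and 7.23, 7.24 and 6.72 in vehicle wells. Vehicle replicate 3 was the lowest of its group but still above every 4OHT well, and the gene was 2.02-fold lower, a log2 fold change of -1.01 with an SE of 0.15 (limma, adjusted p = 0.00841). H2ac21 (Hist2h2ab), the gene of cluster 2 that fell, read 7.969, 7.974 and 8.001 in 4OHT wells and 8.641, 8.716 and 8.901 in vehicle wells. The 4OHT wells were nearly equal, and H2ac21 was 1.71-fold lower, a log2 fold change of -0.77 with an SE of 0.072 (limma, adjusted p = 0.00133). A second, dimmer probe set of H2ac21 had overlapping groups, with 5.05, 5.01 and 4.89 in 4OHT wells and 4.99, 5.07 and 5.07 in vehicle wells. With both probe sets averaged, the log2 fold change of H2ac21 was -0.42 (limma, adjusted p = 0.00575). H2ac10 (Hist1h2af) read 10.269, 9.960 and 10.225 in 4OHT wells and 10.997, 10.847 and 10.590 in vehicle wells, without overlap. It was 1.58-fold lower (adjusted p = 0.0188 by limma), and it missed the threshold when 4OHT replicate 2 (adjusted p = 0.0592), or replicate 1 (0.0516) or 2 (0.0686) of the vehicle wells, was left out. H2ac10 and H2ac15 are also among the genes of a shared probe set with a smaller difference, described below.

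Among the 5 linker histone genes, H1f5 and H1f1 fell. H1f5 (Hist1h1b), a linker histone gene linked to dividing cells, read 6.87, 6.99 and 7.06 in 4OHT wells and 7.78, 8.15 and 8.11 in vehicle wells. The gap between the groups exceeded the range within either, and H1f5 was 2.06-fold lower, a log2 fold change of -1.04 with an SE of 0.11 (limma, adjusted p = 0.00187). H1f1 (Hist1h1a) read 3.41, 3.54 and 3.46 in 4OHT wells and 3.74, 3.64 and 3.82 in vehicle wells. This small difference, 1.20-fold lower at a dim level, passed the threshold (adjusted p = 0.0416 by limma) but did not pass without any 1 of the 6 arrays (adjusted p 0.0517 to 0.129). H1f2 (Hist1h1c), a linker histone gene known to give polyadenylated transcripts and to be made outside S phase too, read 12.30, 12.33 and 12.29 in 4OHT wells and 12.18, 12.21 and 12.20 in vehicle wells. All 4OHT wells lay above all vehicle wells by a small step, with a log2 fold change of 0.11 (95% interval 0.02 to 0.21) that did not pass (adjusted p = 0.130 by limma). It passed in the fit among genes above the median level (adjusted p = 0.0319) and when the spread was estimated robustly with a trend over level (adjusted p = 0.0102). H1f3 (Hist1h1d) read 7.33, 7.61 and 7.23 in 4OHT wells and 7.40, 7.13 and 7.26 in vehicle wells. Its groups overlapped, at a log2 fold change of 0.12 (95% interval -0.15 to 0.39).

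**Figure D2:**
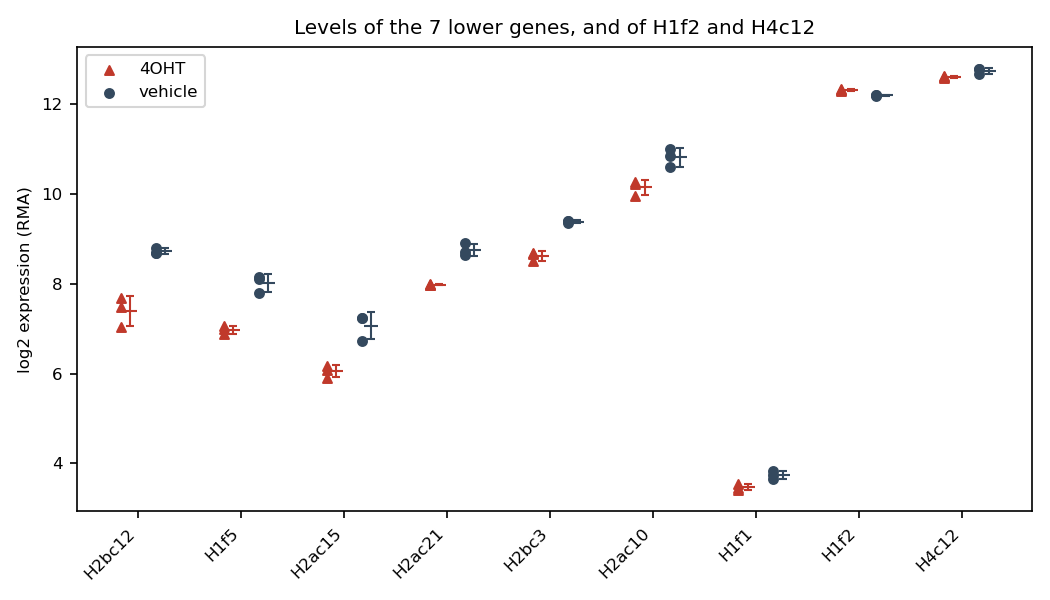
Log2 expression of the 7 genes that fell, and of H1f2 and H4c12, in 4OHT wells (red triangles) and vehicle wells (dark circles), with mean and SD of 3 arrays beside each set. Levels of different genes come from different probe sets and are not comparable with each other; in each of the 7 genes every 4OHT well lies below every vehicle well.

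None of the 8 genes of H4, the most conserved core histone, passed the threshold in either direction. With 8 genes this count cannot be told from the shares of all genes, 6.62% lower and 5.38% higher. 2 of the 8 lay above the median level of all genes, and a difference in dim genes may not be detectable. The log2 fold changes of the 8 H4 genes ran from -0.16 to 0.31 with a median of 0.00, and 4 were negative and 4 positive. H4c12 (Hist1h4k) read 12.59, 12.60 and 12.62 in 4OHT wells and 12.67, 12.77 and 12.78 in vehicle wells. Its groups did not overlap, but the difference was small (log2 fold change -0.13, 95% interval -0.25 to -0.02, adjusted p = 0.130 by limma). Like H1f2 it passed in the fit among genes above the median level (adjusted p = 0.0362) and with the robust, trended spread (adjusted p = 0.0114). H4c14 (Hist2h4) read 7.08, 6.97 and 6.96 in 4OHT wells and 7.20, 7.13 and 7.18 in vehicle wells (adjusted p = 0.0889 by limma). H4c9 (Hist1h4i) read 6.45, 6.52 and 6.34 in 4OHT wells and 6.09, 6.32 and 5.97 in vehicle wells. It had the highest log2 fold change of the 30 genes, 0.31 (95% interval 0.08 to 0.55, adjusted p = 0.0947 by limma), and passed without vehicle replicate 2 (adjusted p = 0.0414). The lower ends of the 95% intervals of the 8 H4 genes reached no further than -0.34 on the log2 scale. Those of shared H4 probe sets, described below, reached as far as -0.96. No test was made of the difference between histone types.

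By type, 2 of 5 H1 genes, 3 of 8 H2A genes, 2 of 9 H2B genes and none of the 8 H4 genes fell, beside 6.62% of all genes. The mean log2 expression of the 8 H2A genes was 6.76 ± 0.03 in 4OHT wells and 7.10 ± 0.12 in vehicle wells, and that of the 9 H2B genes 5.80 ± 0.08 in 4OHT wells and 6.11 ± 0.02 in vehicle wells (SD, n = 3 each). These means include the genes that fell, and the median log2 fold changes were -0.12 for H1, -0.14 for H2A and -0.13 for H2B. The H4 mean was 6.44 ± 0.01 in 4OHT wells and 6.42 ± 0.08 in vehicle wells, with overlapping groups. 9 of the 30 genes lay above the median level of all genes, and 5 of these fell, where 10.9% of all genes above it were lower. Of the 21 at or below it 2 fell, where 2.33% of all genes at or below it were lower. A difference in the dim genes may not be detectable on these arrays.

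Genes known from testis were read as well. H2bc1 (Hist1h2ba), a testis-specific H2B, read 2.94, 2.92 and 3.02 in 4OHT wells and 3.02, 2.82 and 3.04 in vehicle wells, and its groups were the same within their spread. For H1f6 (Hist1h1t), the testis linker histone, the log2 fold change was -0.12 (95% interval -0.49 to 0.25), and for H2ac1 (Hist1h2aa), a testis H2A, it was -0.14 (95% interval -0.39 to 0.11). None of the 3 passed, but H2bc1 lay near the bottom of the measured range, where a fall may not be detectable. With 3 genes this count cannot be told from the 6.62% of all genes that were lower. Of 6 clustered histone genes listed from human or mouse work as giving polyadenylated transcripts, 3 had a probe set of their own, and none passed. These were H1f2, H2bc21 (Hist2h2be) and H4f16 (Hist4h4). With 3 genes this count, too, cannot be told from the shares of all genes, 6.62% lower and 5.38% higher. H2bc21 read 5.98, 5.94 and 6.05 in 4OHT wells and 6.18, 6.10 and 6.18 in vehicle wells, a small step without overlap (log2 fold change -0.16, adjusted p = 0.0933 by limma). H4f16 read 7.95, 8.04 and 8.14 in 4OHT wells and 7.98, 8.07 and 8.15 in vehicle wells, with overlapping groups. A second H4f16 probe set read 5.96 to 6.07 in 4OHT wells and 6.08 to 6.39 in vehicle wells, without overlap and not past the threshold over all probe sets (adjusted p = 0.211 by limma).

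The remaining H2A and H2B genes did not pass. H2bc9 (Hist1h2bh) had the most negative log2 fold change among them, -0.40, with a wide 95% interval of -0.87 to 0.07. Those of H2ac12, H2ac20, H2aw, H2af-ps2, H2bc14, H2bc18, H2bc22 and H2bu1-ps lay between -0.14 and 0.14, all with overlapping groups. H2aw (Hist3h2a), the H2A gene of highest log2 fold change (0.13), read 7.497, 7.491 and 7.418 in 4OHT wells and 7.401, 7.446 and 7.167 in vehicle wells. H2bu1-ps (Hist3h2bb), the same among H2B (0.14), read 3.83, 3.72 and 4.07 in 4OHT wells and 3.62, 3.74 and 3.83 in vehicle wells. Both genes of cluster 3 were thus positive with overlapping groups, and all 5 genes of cluster 2 were negative, 1 of them called. Over all genes, 11402 of 22180 were negative, and so few genes cannot show a difference between clusters.

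Promoters of the 5 genes whose falls held without any 1 array, and of H1f2 as a linker histone gene that did not fall, are shown from RefSeq (GRCm38.p6). Each runs from 250 bases before the start of the gene to 50 after it, 5′ to 3′ on the strand of the gene. Capitals mark 4 kinds of word on either strand: TATAAA, the box that places the polymerase; CCAAT, the site of the factor NF-Y; the octamer ATTTGCAT, the site of the factor Oct1 known from H2B promoters; and TTTGGCGC, TTTCCCGC or TTTCGCGC, spellings of the E2F site.
H2bc12 (chr13:22035571-22035870, plus strand): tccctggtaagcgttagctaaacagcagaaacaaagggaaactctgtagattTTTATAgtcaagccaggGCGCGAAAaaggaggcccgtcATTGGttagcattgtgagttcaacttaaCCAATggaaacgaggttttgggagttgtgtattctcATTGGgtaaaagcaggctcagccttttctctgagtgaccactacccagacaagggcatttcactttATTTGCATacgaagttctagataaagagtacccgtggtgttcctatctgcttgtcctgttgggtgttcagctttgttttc
H2bc3 (chr13:23746484-23746783, plus strand): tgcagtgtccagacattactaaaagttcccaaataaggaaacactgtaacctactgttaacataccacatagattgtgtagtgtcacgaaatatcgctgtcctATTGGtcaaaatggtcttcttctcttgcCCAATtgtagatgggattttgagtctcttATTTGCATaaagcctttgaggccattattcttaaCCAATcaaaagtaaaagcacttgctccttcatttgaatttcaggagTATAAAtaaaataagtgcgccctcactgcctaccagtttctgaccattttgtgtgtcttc
H2ac15 (chr13:21753863-21754162, minus strand): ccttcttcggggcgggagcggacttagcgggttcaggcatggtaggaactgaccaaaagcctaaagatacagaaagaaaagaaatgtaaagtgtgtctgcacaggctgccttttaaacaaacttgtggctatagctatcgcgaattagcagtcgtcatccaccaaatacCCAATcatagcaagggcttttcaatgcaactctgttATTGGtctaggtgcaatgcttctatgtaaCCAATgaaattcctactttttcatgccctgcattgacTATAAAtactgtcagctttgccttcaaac
H2ac21 (chr3:96219635-96219934, plus strand): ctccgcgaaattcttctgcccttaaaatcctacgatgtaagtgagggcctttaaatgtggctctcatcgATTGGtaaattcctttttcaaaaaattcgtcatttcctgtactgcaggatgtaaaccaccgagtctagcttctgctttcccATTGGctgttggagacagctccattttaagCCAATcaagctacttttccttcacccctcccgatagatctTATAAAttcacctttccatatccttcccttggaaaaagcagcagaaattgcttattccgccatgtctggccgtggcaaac
H1f5 (chr13:21780576-21780875, minus strand): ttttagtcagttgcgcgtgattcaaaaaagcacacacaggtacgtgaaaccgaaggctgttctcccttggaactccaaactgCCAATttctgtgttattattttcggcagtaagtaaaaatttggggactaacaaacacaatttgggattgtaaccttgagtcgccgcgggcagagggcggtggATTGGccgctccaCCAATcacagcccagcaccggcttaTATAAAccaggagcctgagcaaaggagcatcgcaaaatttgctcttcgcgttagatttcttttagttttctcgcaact
H1f2 (chr13:23738557-23738856, plus strand): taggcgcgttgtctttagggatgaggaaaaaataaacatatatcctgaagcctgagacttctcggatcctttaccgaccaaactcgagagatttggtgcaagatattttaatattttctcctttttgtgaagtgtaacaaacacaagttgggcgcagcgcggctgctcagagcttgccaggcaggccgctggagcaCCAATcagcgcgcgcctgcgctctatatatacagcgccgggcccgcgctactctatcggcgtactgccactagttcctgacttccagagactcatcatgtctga

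In H1f5 the TATAAA word began 28 bases before the start and a CCAAT word 53 bases before it, and 3 CCAAT words stood in the window. H1f2 held a CCAAT word 54 bases before its start and no TATAAA word. Only that exact spelling was searched, and the letters tatatata stand between this CCAAT word and the start of H1f2. H2bc12 held the octamer 30 bases before its start, CCAAT words at 96, 132 and 160 bases, and an E2F word at 181 bases. H2bc3 held the octamer at 90 bases. The start of an H2A gene, H2ac12, lay 176 bases from that of H2bc12 on the opposite strand, so the 2 genes share this stretch. The probe set of H2ac12 alone read 3.02, 3.34 and 3.12 in 4OHT wells and 3.24, 3.24 and 3.13 in vehicle wells, near the bottom of the measured range, and its groups overlapped (log2 fold change -0.04, 95% interval -0.25 to 0.17). H2ac12 is also among the genes of shared H2A probe sets, described below, of which some were lower and 1 higher. Their values cannot be assigned to H2ac12 alone. H2bc12 fell in the same wells, as given above. The arrangement was not particular to this pair. H2ac15 had the start of an H2B gene, H2bc15, 162 bases away on the opposite strand. In all, 7 of the 26 genes with a promoter in the table had a start on the opposite strand within 1000 bases.

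26 of the 30 genes had a promoter in the table. CCAAT stood in 20 of these (76.9%), against 37.4% of all 32851 promoters, TATAAA in 16 (61.5% against 13.6%), the octamer in 9 (34.6% against 1.74%) and an E2F word in 5 (19.2% against 1.84%). CCAAT stood in all 7 genes that fell and in 13 of the 19 others, TATAAA in 6 of 7 and 10 of 19, the octamer in 2 of 7 and 7 of 19, and an E2F word in 2 of 7 and 3 of 19. Words were counted at any position and on either strand. In the genes that fell, TATAAA began 28 to 33 bases before the start in H1f1, H1f5 and H2ac21 alone. It began 10 bases before it in H2bc3, after it in H2ac15, and 198 bases before it on the opposite strand in H2bc12. The words of H2bc12, which fell, and of H2ac12, which was not called, are the same bases, counted once in each group. CCAAT also differed by histone type, since all 19 H1, H2A and H2B promoters held it and 1 of 7 H4 promoters did. The octamer stood in 5 of 7 H2B and 4 of 7 H2A promoters and in none of the H1 or H4 promoters. In the 4 H2A promoters it stood on the strand opposite to the gene. The octamer of H2ac1 is the same bases as that of H2bc1, and the octamer of H2ac12 the same as that of H2bc12. These words are matches of letters, not measured sites, and no words overlapped each other.

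38 probe sets listed several genes, all of them clustered histone genes, and 35 of these held values of their own, the other 3 repeating another probe set exactly. They were tested over all 41345 probe sets of the table, of which 2.38% were lower and 2.25% higher in 4OHT wells at an adjusted p under 0.05. The table also holds probe sets with no gene symbol, and among those with at least 1 symbol 3.48% were lower and 2.45% higher. Of the 35, 6 were lower and 1 higher, with a median log2 fold change of -0.10. In 12 of them all 4OHT wells lay below all vehicle wells, as in 12.6% of all probe sets. In the same fit 5 of the 30 genes with probe sets of their own were lower and none higher.

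H3, the core histone that carries many of the regulatory marks of chromatin, was read by 12 shared probe sets alone. 1 of these, 17291008, which lists 4 genes of cluster 1, was lower, with 3.33, 3.19 and 3.37 in 4OHT wells and 4.11, 3.88 and 4.05 in vehicle wells (log2 fold change -0.72, adjusted p = 0.0104 by limma). The groups stood apart at a dim level. Probe set 17400555, which lists 8 genes of clusters 1 and 2, read 11.36, 11.44 and 11.47 in 4OHT wells and 11.63, 11.67 and 11.81 in vehicle wells. This step was also without overlap but did not pass (log2 fold change -0.28, adjusted p = 0.0817 by limma). Probe set 17408015 lists the same 8 genes and had a positive difference, with 8.40, 8.47 and 8.68 in 4OHT wells and 8.10, 8.17 and 7.99 in vehicle wells (log2 fold change 0.43, adjusted p = 0.0638 by limma). The median log2 fold change of the H3 probe sets was -0.09, and the 1 lower of 12 stands beside 2.38% of all probe sets. Their values cannot be assigned to single genes.

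The shared H2A and H2B probe sets also split. Among 9 shared H2A probe sets, 3 were lower, beside 2.38% of all probe sets. Probe set 17291012, which lists 10 genes of cluster 1 with H2ac12 among them, read 10.69, 10.56 and 10.79 in 4OHT wells and 11.51, 11.46 and 11.35 in vehicle wells (log2 fold change -0.76, adjusted p = 0.00750 by limma). Probe set 17291204 lists the same 10 genes and was the shared probe set that was higher, with 7.27, 7.30 and 7.19 in 4OHT wells and 6.85, 6.63 and 6.55 in vehicle wells (log2 fold change 0.58, adjusted p = 0.0249 by limma). These 2 probe sets with 1 gene list differed in opposite directions. Of 8 shared H2B probe sets 2 were lower, beside the same 2.38%. The one listing 12 genes, 17285691, has H2bc12 among them. It read 12.84, 12.80 and 12.89 in 4OHT wells and 13.23, 13.21 and 13.19 in vehicle wells (log2 fold change -0.36, adjusted p = 0.0174 by limma). Probe set 17285710 lists the same 12 genes and had overlapping groups, with 7.93, 7.93 and 8.05 in 4OHT wells and 7.99, 8.01 and 7.89 in vehicle wells (log2 fold change 0.01, adjusted p = 0.955 by limma). A probe set listing 3 H2B genes, 17285851, read 13.19, 13.11 and 13.13 in 4OHT wells and 13.22, 13.18 and 13.05 in vehicle wells, with overlapping groups. None of the 5 shared H4 probe sets passed, and with 5 this count cannot be told from that 2.38%. Their log2 fold changes ran from -0.48 to 0.33 with a median of -0.14.

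**Figure D3:**
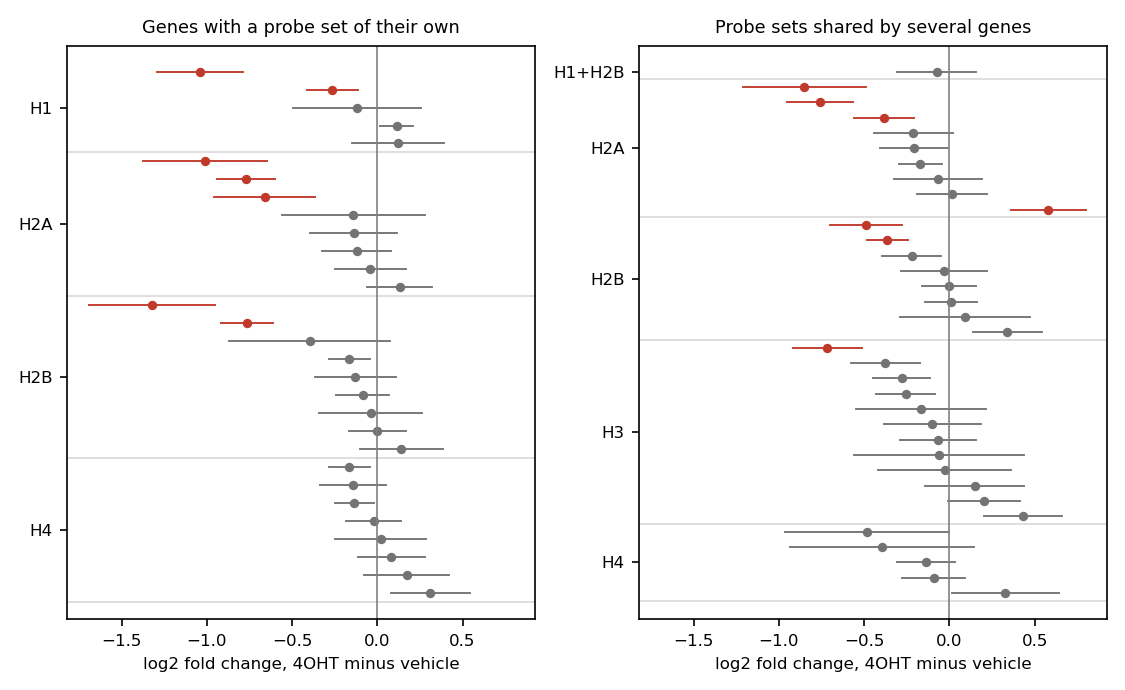
Log2 fold change, 4OHT minus vehicle, with 95% interval for the 30 genes with a probe set of their own (left, fit over all genes) and the 35 shared probe sets (right, fit over all probe sets), grouped by histone type; red marks an adjusted p under 0.05. H1, H2A and H2B hold the 7 genes that fell on the left, the right panel holds 6 lower probe sets and 1 higher, an H2A probe set, and no H4 feature is red in either panel.

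Genes that work with the clustered histones were compared in the same fit. Of 26 measured genes of S phase entry and DNA synthesis, 15 fell and none rose, with a median log2 fold change of -0.38, beside 6.62% of all genes lower. Cyclin A2 (Ccna2), which drives S phase and entry into mitosis, was 2.99-fold lower, and the helicase subunit Mcm5 2.48-fold lower. On the log2 scale Mcm6 fell by 1.07, Rrm2 of ribonucleotide reductase by 0.98, Uhrf1 by 0.96 and Cdc45 by 0.59. The part of this difference in the histone values was not tested.

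Histone genes outside the clusters encode variants, many of them made independently of replication. Of 12 measured, 4 fell and 1 rose, beside 6.62% of all genes lower and 5.38% higher. Cenpa, the H3 variant of centromeres, read 8.19, 8.31 and 8.46 in 4OHT wells and 9.21, 9.04 and 9.24 in vehicle wells (1.79-fold lower, adjusted p = 0.00190 by limma). H2ax, the H2A variant phosphorylated at DNA breaks, read 9.98, 9.92 and 10.16 in 4OHT wells and 10.54, 10.54 and 10.61 in vehicle wells (1.46-fold lower, adjusted p = 0.00448 by limma). Both were clearly apart between the groups. On the log2 scale H1f10 fell by 0.30 and H2az2 by 0.25, and H2aj rose by 0.30. H1f10 did not pass without any 1 array (adjusted p 0.0674 to 0.114), and H2az2 did not pass without replicate 1 or 2 of the 4OHT wells or replicate 1 or 3 of the vehicle wells (adjusted p 0.0894 to 0.115). For H2az1, an H2A.Z gene, the log2 fold change was -0.03 (95% interval -0.22 to 0.15).

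Of 22 measured histone chaperone genes, 3 fell (13.6%) and none rose, beside 6.62% of all genes lower and 5.38% higher. Asf1b, the H3-H4 chaperone linked to proliferating cells, read 8.11, 8.17 and 8.22 in 4OHT wells and 9.22, 9.22 and 9.27 in vehicle wells (2.09-fold lower, adjusted p = 0.000188 by limma). Chaf1a, a subunit of the CAF-1 complex that places H3 and H4 on new DNA, fell by 0.43 in log2 units. Tonsl, which binds new H4, fell by 0.37, but did not pass without replicate 1 or 3 of the vehicle wells.

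Of 19 measured factors that transcribe the clustered genes or act on their 3′ ends, 1 rose and 1 fell, near the shares of all genes. Slbp, the stem-loop binding protein, read 9.87, 9.91 and 9.72 in 4OHT wells and 9.71, 9.76 and 9.91 in vehicle wells, with full overlap (log2 fold change 0.04, 95% interval -0.14 to 0.22). For Npat, which activates histone transcription, the log2 fold change was 0.07 (95% interval -0.06 to 0.20). Lsm10, a part of the U7 particle that cleaves histone precursor RNA, rose by 0.28 on the log2 scale (adjusted p = 0.0134 by limma), and missed the threshold without replicate 2 of the 4OHT wells or replicate 1 or 2 of the vehicle wells. Mif4gd, a partner of Slbp in translation, fell by 0.22 (adjusted p = 0.0303 by limma), and missed it when any array but replicate 3 of the 4OHT wells was left out.

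**Figure D4:**
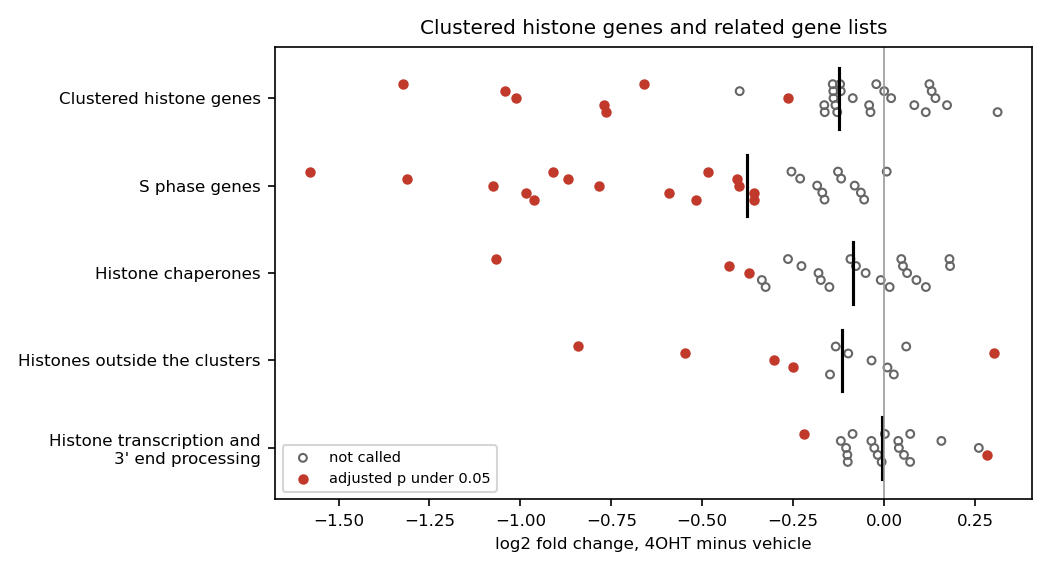
Log2 fold change, 4OHT minus vehicle, of the 30 clustered histone genes and of 4 related gene lists, with filled red points at an adjusted p under 0.05 and a black bar at each median. The S phase genes lie farthest to the left as a group (median -0.38), the clustered histone genes hold 7 genes that fell beside many near 0, and the transcription and 3′ end factors centre on 0.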

How the data were processed

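Total RNA from 6 wells of cultured lung fibroblasts was labelled from 100 ng with an oligo(T) primer and hybridised to single-colour Affymetrix arrays, per the labels' protocols. The deposited values are log2 expression per probe set, made with RMA, and per the submitters' processing notes the tools were oligo and limma, with no versions. RMA sets the arrays to like distributions, so a shift of all genes one way would be removed. No genome build is given in the sources used here.

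Of 41345 probe sets, 23521 had 1 gene symbol, 1814 several and 16010 none. The probe set with the highest mean stood for each gene, and no filter on dim genes was set. 4OHT wells were set against vehicle wells with limma 3.58.1 under R 4.3.3 (lmFit and eBayes, two-sided, 6.70 degrees of freedom), with Benjamini-Hochberg adjustment over all genes and a threshold of 0.05. Log2 fold changes are 4OHT minus vehicle. The number of arrays limits precision. The fit was tested on simulated data. Every clustered histone gene could be named, and from each related list up to 6 called genes of smallest p with Slbp, Npat, H2ax and H2az1. The genes and lists were chosen with earlier results of these data known. Alternatives were a replicate block, median centring, a second quantile normalization, a test restricted to genes above the median level, averaging over probe sets, eBayes with trend and robust settings, weights per array, a threshold of 0.01, a fit to the whole table with shared probe sets counted, and each array left out in turn.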

Additional observations from a re-analysis of the deposited data

How the results depend on the processing

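The falls of H2bc12, H1f5, H2ac15, H2ac21 and H2bc3 held their direction and passed under every alternative run in which the gene was tested, the fit over all probe sets included, though averaging probe sets took the log2 fold change of H2ac21 to -0.42. 5 to 7 clustered histone genes were lower in each of the other gene fits (5 to 6 when 1 array was left out). With all probe sets and the shared ones counted, 11 of 67 features were lower and 1 higher. The number higher was 1 with the replicate block (H4c9), among genes above the median level or with the trended and robust estimate (H1f2), and 0 to 1 with an array left out. 1 H1 gene was lower with the replicate block, above the median level, with the trended and robust estimate, with array weights, at 0.01 and without any 1 array, since H1f1 was not called or not tested there. 1 H1 gene was higher, and 1 H4 gene (H4c12) lower, above the median level and with the trended and robust estimate. 1 H4 gene was higher with the replicate block and 0 to 1 with an array left out.

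For 3′ end factors, 0 were lower with the replicate block or at 0.01 and 0 to 1 with an array left out. Of these factors, 0 were higher with the block or at 0.01 and 0 to 1 with an array left out. Above the median level or with the trended and robust estimate 3 were higher, and 2 with array weights. In those fits 15.8%, 8.24% and 6.57% of all genes were higher, against 5.38%. For histones outside the clusters, 2 were lower with the block or at 0.01 and 2 to 3 with an array left out, and 0 were higher above the median level. For chaperones, 7 were lower above the median level, 9 with the trended and robust estimate and 6 with array weights, in fits where 19.2%, 10.3% and 7.91% of all genes were lower against 6.62%; 1 was higher with centring, above the median level or with array weights, 2 with the trended and robust estimate, and 0 to 1 with an array left out. The causes of these shifts were not tested. Wells of the same replicate number did not vary together (r of their deviations -0.02 to 0.06 across genes), so the number is not taken as a pairing. With it as a block 648 genes were higher and 920 lower over all genes, against 1193 and 1469 without it, and 6 clustered histone genes were lower. No called gene named here changed sign, but 7 clustered histone genes that were not called did under at least 1 alternative (H1f6, H2ac12, H2af-ps2, H2bc1, H2bc14, H4c1 and H4f16), as did Slbp and H2az1. The median over the clustered histone genes was -0.66 above the median level. Levels near the bottom of the range limit what can be seen for the dim genes.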
